A study of Homo sapiens with 12 samples.

Results

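The genes described are 9 claudins, *CLDN1*, *CLDN2*, *CLDN3*, *CLDN4*, *CLDN7*, *CLDN10*, *CLDN12*, *CLDN16* and *CLDN23*, taken by symbol from a table of 23346 genes that lists 23 claudins in all. Claudins are membrane proteins with 4 transmembrane spans that pair across the space between neighbouring epithelial cells and form the strands of the tight junction. The set a cell makes is known to decide which solutes pass between cells, since some claudins seal the junction and others form pores for cations, anions or water. In the pancreas they line the ducts and acini, and claudin-4 is known to be abundant in ductal adenocarcinoma.

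The sequenced RNA came from SW1990 and CFPAC-1, established cell lines of human pancreatic ductal adenocarcinoma, after sorting with GCTM-5, an antibody to a secreted glycoprotein complex that carries CA 19-9. The 4 groups were GCTM-5 negative SW1990, GCTM-5 positive SW1990, GCTM-5 negative CFPAC-1 and GCTM-5 positive CFPAC-1 cells, with 3 samples in each and 12 in all. The sources name no agent beyond the staining antibodies and the DAPI nuclear stain for any group. The gates kept only the brightest and the unstained cells of each line, so each group models a sub-population of cultured tumour cells and not a tissue. The study describes triplicate sorts and does not state whether these came from separate cultures, so that p-values measure the spread between these samples, which may be technical.

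Libraries held 9969697 to 26159330 reads, and the smallest, CFPAC-1 positive replicate 3, also had the lowest correlation with its replicates (Pearson r of 0.9677 to 0.9682 across genes, against up to 0.986 elsewhere). Values are the RPKM made by the authors, reads scaled by gene length and library size so that genes and samples can be compared. Between samples only library size was scaled, and centring on the median shifted the share of calls in each direction, as given below. The labelled cell type was checked against 6 ductal epithelial markers (*EPCAM*, *CDH1*, *KRT7*, *KRT8*, *KRT18* and *KRT19*), which were above 0 in every group and summed to 1595.1 to 1941.8 RPKM in SW1990 negative samples, 4360.4 to 4841.4 in SW1990 positive, 5411.1 to 6173.2 in CFPAC-1 negative and 6676.0 to 8162.4 in CFPAC-1 positive samples. The sum of 6 mesenchymal markers ran from 1288.9 to 1450.8, 201 to 372, 551 to 752 and 420 to 589 RPKM in the same order, with *TWIST1* at 0 in all samples. Among 4 endothelial markers, *PECAM1*, *VWF* and *CLDN5* stayed under 1 RPKM, whereas *CDH5* was at 15.6 ± 1.82 RPKM in SW1990 negative cells (SD, n = 3). Of 4 leukocyte markers *PTPRC* did not exceed 0.0488 RPKM in any sample while *CD68* was at 120 ± 8.97 RPKM in CFPAC-1 negative cells, and 3 acinar markers summed to at most 0.0631 RPKM. In RNA from many cells, fewer cells that express a claudin and less RNA of it per cell cannot be told apart.

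All 9 claudins passed the filter of a mean of 0.1 RPKM over the 12 samples that left 16236 genes for testing. Log2 of RPKM plus 0.1 was fitted with limma, and calls needed a change of over 2-fold and an unadjusted 2-sided p under 0.01, the thresholds the study states. Log2 fold changes and their standard errors (SE) are on this scale, and p was adjusted over all 16236 genes by the Benjamini-Hochberg method. The plot of RPKM by sample shows the 12 values of each gene.

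**Figure D1:**
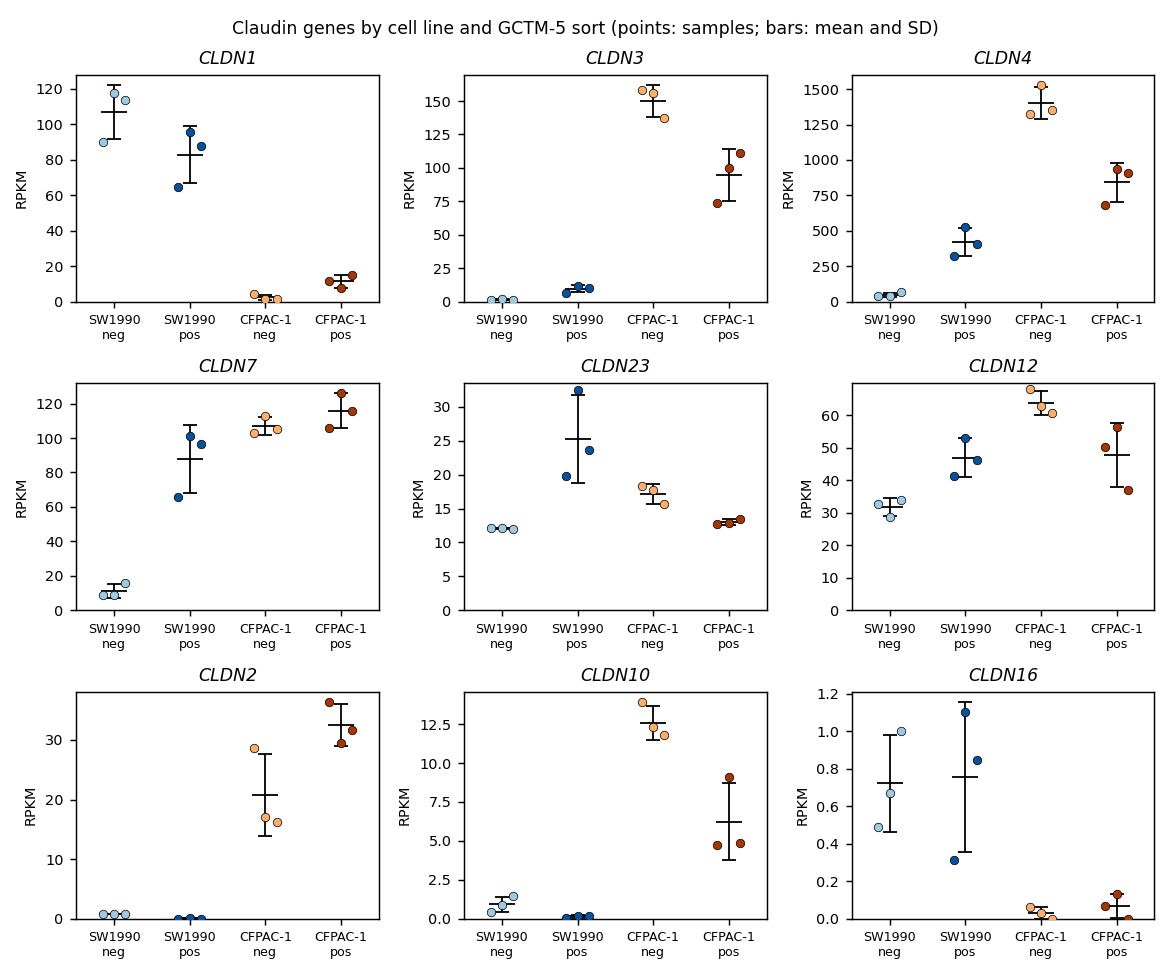
RPKM (linear axis from 0, scaled per gene) of the 9 claudins in GCTM-5 negative (neg) and positive (pos) cells of SW1990 and CFPAC-1, with 1 point per sample and bars for the mean and SD of 3 samples. *CLDN3*, *CLDN4* and *CLDN7* were higher in all positive than in all negative SW1990 samples, while *CLDN1* was at 64.7 RPKM or more in every SW1990 sample and at most 14.9 RPKM in CFPAC-1.

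*CLDN4* was the most abundant claudin in 3 of the 4 groups and *CLDN1* in the fourth. The orders that follow are among the 9 only. Outside them, *CLDN11* was at 48.0 ± 4.49 RPKM in SW1990 negative cells and *CLDN9* at 56.7 ± 2.55 RPKM in CFPAC-1 negative cells. In SW1990 negative cells *CLDN1* led at 107 ± 15.1 RPKM (SD, n = 3 for all groups), followed by *CLDN4* at 49.2 ± 14.7, *CLDN12* at 31.8 ± 2.75 and *CLDN23* at 12.1 ± 0.0867 RPKM. *CLDN7*, at 11.1 ± 4.09 RPKM, overlapped *CLDN23* in its samples, and *CLDN3*, *CLDN10*, *CLDN2* and *CLDN16* each overlapped their neighbour in this order between 1.3 and 0.721 RPKM. In SW1990 positive cells the order was *CLDN4* at 419 ± 99.9, then *CLDN7* at 87.8 ± 19.5 and *CLDN1* at 82.8 ± 16.1 RPKM, of which the latter pair overlapped.

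CFPAC-1 had another order, with *CLDN1* near the bottom. In its negative cells *CLDN4* stood at 1402.5 ± 111 RPKM, above *CLDN3* at 150 ± 11.8, *CLDN7* at 107 ± 5.32 and *CLDN12* at 63.8 ± 3.73 RPKM, with no overlap between these neighbours. *CLDN2* and *CLDN23* overlapped at 20.7 ± 6.87 and 17.2 ± 1.47 RPKM, and *CLDN1* was eighth at 2.44 ± 1.38 RPKM. In CFPAC-1 positive cells *CLDN4* was at 843 ± 138 RPKM, *CLDN7* and *CLDN3* overlapped at 116 ± 10.0 and 94.7 ± 19.2 RPKM, and *CLDN23* and *CLDN1* overlapped at 13.0 ± 0.403 and 11.4 ± 3.52 RPKM. *CLDN16* was the lowest of the 9 in both CFPAC-1 groups.

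Summed over the 9 genes, claudin RNA came to 215 ± 30.3 RPKM in SW1990 negative, 672 ± 148 in SW1990 positive, 1776.9 ± 115 in CFPAC-1 negative and 1164.9 ± 162 RPKM in CFPAC-1 positive cells. The sums of the 4 groups did not overlap. *CLDN1* made up 50.0 ± 4.69% of the sum in SW1990 negative cells and 12.4 ± 0.685% in SW1990 positive cells, against 0.139 ± 0.0835% and 0.998 ± 0.329% in CFPAC-1 negative and positive cells. *CLDN4* made up 22.6 ± 3.74% in SW1990 negative and 62.2 ± 1.71% in SW1990 positive cells, and 78.9 ± 1.62% and 72.2 ± 2.00% in CFPAC-1. The positive SW1990 cells lay between negative SW1990 cells and CFPAC-1 in both the sum and the share of *CLDN4*.

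**Figure D2:**
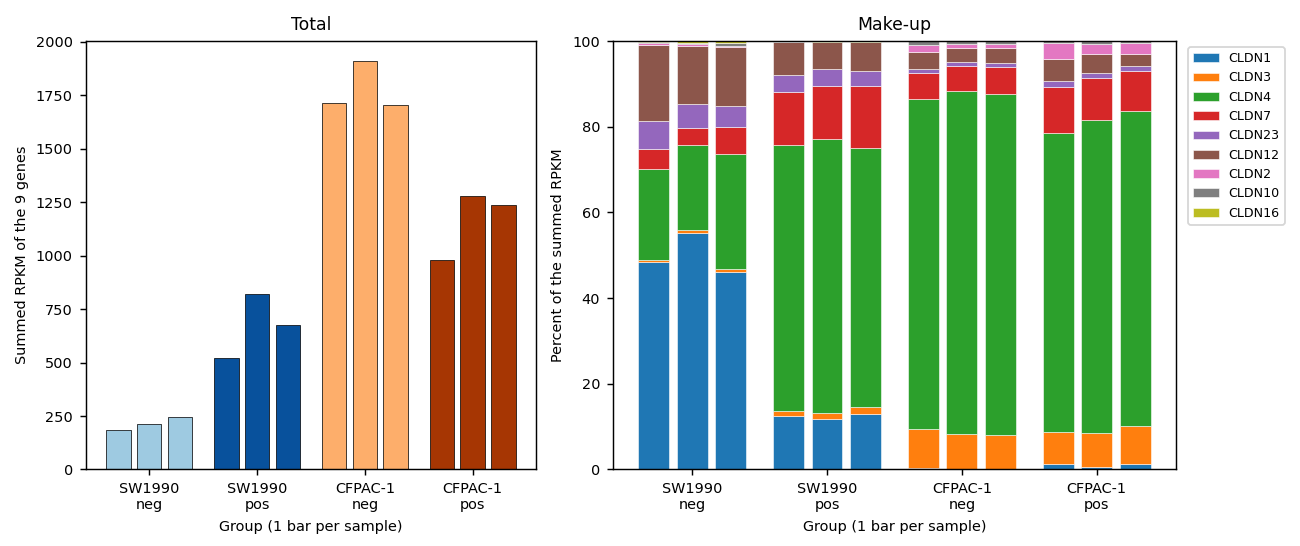
Left, RPKM summed over the 9 claudins in each of the 12 samples (axis from 0). Right, the percent of that sum from each gene, with 1 bar per sample in the same order. *CLDN1* took 46.2% to 55.2% of the sum in SW1990 negative samples and at most 13.0% in any other, and *CLDN4* took 60.5% to 80.0% outside that group.

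The comparison of GCTM-5 positive with negative cells within SW1990 asked which genes go with the antigen in this line. *CLDN3*, *CLDN4* and *CLDN7*, which are known to tighten epithelia, rose 6.88-fold, 8.57-fold and 8.03-fold in positive cells, and *CLDN23* rose 2.04-fold. *CLDN1*, also a sealing claudin, was not called (log2 fold change -0.38). The pore-forming *CLDN2* and *CLDN10* fell. Of the 9, 4 rose and 2 fell, against 4.59% of all genes tested called higher and 7.48% called lower. In 5 genes all positive samples were above all negative ones and in 2 all were below, as in 17.9% and 25.4% of all genes. The median log2 fold change of the 9 was 0.55, beside -0.04 over all genes.

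*CLDN4* encodes a claudin that limits paracellular sodium and, with claudin-3, serves as a receptor for *Clostridium perfringens* enterotoxin. Its values in SW1990 were 39.2, 42.4 and 66.1 RPKM in negative and 325, 524 and 407 RPKM in positive cells. Every positive sample was above every negative one by a wide margin. In the fit *CLDN4* rose by 3.10 on the log2 scale (SE 0.21, adjusted p = 8.66e-07, limma).

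*CLDN7* encodes a claudin of the lateral membrane that is known to bind EpCAM. It was at 8.88, 8.60 and 15.8 RPKM in negative and at 65.5, 101 and 96.8 RPKM in positive SW1990 cells. Negative replicate 3 was the highest of its group for both *CLDN4* and *CLDN7*, and positive replicate 1 the lowest of its own. In the fit it rose by 3.01 (log2, SE 0.22, adjusted p = 1.15e-06, limma).

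*CLDN3*, the neighbour of *CLDN4* on chromosome 7, was far lower in SW1990 than either, at 0.917, 1.65 and 1.33 RPKM in negative cells and 6.47, 11.8 and 10.5 RPKM in positive cells. The negative values rest on 24, 49 and 30 reads and the positive values on 160, 255 and 237. The groups did not overlap, and the log2 fold change was 2.78 (SE 0.24, adjusted p = 4.83e-06, limma).

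Positions and sequences of these 3 genes are given because they rose together in SW1990. *CLDN3* is a gene of 1 exon on chromosome 7 of GRCh37 (73183327 to 73184600, minus strand). *CLDN4* lies on the plus strand (73213872 to 73247020), 29271 bases from it between the outer ends of the GENCODE spans. The RefSeq windows of these genes on GRCh38.p14 lie further apart than that (73770221 to 73770520 and 73830746 to 73831045). The *CLDN4* start used below is therefore not the outer end of its GENCODE span. *CLDN7* is on chromosome 17 (7163222 to 7167302, minus strand), where it overlaps the opposite gene *ELP5* by 38 bases at its 3' end and shares 2187 bases with a gene model on its own strand. The 250 bases before the start of each are printed 5' to 3' from RefSeq on GRCh38.p14, in lower case, with capitals for the E-box CACCTG or its complement CAGGTG, a sequence that the repressor ZEB1 is known to bind. *CLDN7* has 2 starts in RefSeq, and the one with E-boxes is shown.
CLDN3, chr7:73770271-73770520, minus strand: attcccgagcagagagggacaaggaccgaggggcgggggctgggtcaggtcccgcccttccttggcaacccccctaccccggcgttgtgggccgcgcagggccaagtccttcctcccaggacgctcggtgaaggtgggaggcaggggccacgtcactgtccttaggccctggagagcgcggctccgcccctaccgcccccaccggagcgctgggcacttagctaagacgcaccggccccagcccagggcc
CLDN4, chr7:73830746-73830995, plus strand: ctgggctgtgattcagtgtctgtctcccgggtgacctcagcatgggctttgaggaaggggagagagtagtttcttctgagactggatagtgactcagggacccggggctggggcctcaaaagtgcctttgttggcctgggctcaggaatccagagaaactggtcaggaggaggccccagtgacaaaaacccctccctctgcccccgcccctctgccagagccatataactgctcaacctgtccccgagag
CLDN7, chr17:7262479-7262728, minus strand: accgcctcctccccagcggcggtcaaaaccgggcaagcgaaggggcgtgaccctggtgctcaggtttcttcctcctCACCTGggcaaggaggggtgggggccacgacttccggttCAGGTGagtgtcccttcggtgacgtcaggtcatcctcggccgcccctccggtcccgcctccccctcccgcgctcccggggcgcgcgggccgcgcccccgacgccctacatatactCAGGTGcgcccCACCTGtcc
With the first transcribed base counted as 1, the *CLDN7* matches begin at -174, -135, -20 and -9, and one more begins at 6, for 5 in the window of 300 bases that ends 50 bases after the start. The *CLDN3* window has 1 match, at 37, and the *CLDN4* window none. The 20 bases around the *CLDN3* match are as follows.
CLDN3 match, chr7:73770222-73770241, minus strand: ccacaggCAGGTGcaggcgc
Of all 35116 RefSeq windows of this length, 20.6% hold at least 1 such match and 0.094% hold 5 or more. The *CLDN7* window was chosen for its matches, and that of the other *CLDN7* start holds 0, so these shares do not measure how unusual the gene is. RefSeq windows were at hand for 8 of the 9 claudins, 12 windows in all, and 3 of the 12 held a match. The third was a window of *CLDN16*, with a match at 21, a gene that was not called in SW1990 (log2 fold change -0.03). As a count, 3 of 12 does not stand out from the share of all windows. The Grainyhead site AACCGGTT, which reads the same on both strands, was in none of the 12 and in 0.134% of all windows. A match of letters is a description of these windows, and binding was not measured.

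*CLDN23* encodes a claudin of surface epithelia and is a gene of 1 exon on the plus strand of chromosome 8 of GRCh37 (8559447 to 8561606), where 1941 bases are shared with an annotated pseudogene on its own strand. It was at 12.2, 12.1 and 12 RPKM in negative and at 19.8, 32.5 and 23.7 RPKM in positive SW1990 cells. The groups were apart, though the positive samples spread more than the negative ones. The log2 fold change of 1.03 (SE 0.15, adjusted p = 0.000213, limma) was just past 2-fold and dropped to 0.84 (adjusted p = 0.000234) without positive replicate 2, which ends the call. *CLDN12* encodes a claudin without the usual PDZ-binding end and was at 32.8, 28.7 and 33.9 RPKM in negative and 41.3, 53.1 and 46.3 RPKM in positive SW1990 cells. These groups did not overlap either, but the log2 fold change of 0.55 (SE 0.14, adjusted p = 0.0129, limma) was under 2-fold. *CLDN12* lies on chromosome 7 (90013035 to 90142716, plus strand) and overlaps 4 annotated genes of the same strand, among which its reads could be split.

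*CLDN1*, a sealing claudin that the skin barrier depends on, was at 90.0, 118 and 114 RPKM in negative and 64.7, 95.7 and 87.9 RPKM in positive SW1990 cells. The groups overlapped, with positive replicate 2 above negative replicate 1. The log2 fold change was -0.38 with a 95% interval from -1.08 to 0.31 (adjusted p = 0.42, limma), and a 2-fold fall lies inside the interval.

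The pore-forming *CLDN2* and *CLDN10* moved the other way in SW1990, from low levels. *CLDN2*, whose protein forms a channel for small cations and water, was at 0.708, 0.812 and 0.789 RPKM in negative cells, on 50, 65 and 48 reads. In positive cells it had 0, 11 and 0 reads, all 11 of them in replicate 2 (0.188 RPKM). The groups did not overlap, and reads per library total came to a ratio of 0.0768 for positive over negative cells (exact 95% interval 0.0376 to 0.141, counting error only). The fitted log2 fold change was -2.61 (SE 0.36, adjusted p = 0.000164, limma), a size set by the pseudocount, since it was -0.74 (adjusted p = 0.00798) with 1 added in place of 0.1, which ends the call, and -4.85 (adjusted p = 0.00166) with 0.01 added.

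*CLDN10*, whose isoforms form cation or anion channels, was at 0.447, 0.848 and 1.44 RPKM in negative and 0.0702, 0.200 and 0.154 RPKM in positive SW1990 cells, the latter on 4, 10 and 8 reads. All positive samples were below all negative ones, though the negative values differed over 3-fold among themselves. The log2 fold change of -1.98 (SE 0.36, adjusted p = 0.00143, limma) became -0.71 (adjusted p = 0.0298) with a pseudocount of 1, which ends the call. *CLDN16*, which in the kidney takes part in magnesium reabsorption, was at 0.491, 0.669 and 1.00 RPKM in negative and 0.315, 1.10 and 0.845 RPKM in positive SW1990 cells. These overlapped throughout, and the log2 fold change of -0.03 had a 95% interval from -0.99 to 0.93 (adjusted p = 0.982, limma). Its sign changed with the scaling, to 0.02 with each sample centred on its median and 0.22 with quantile normalization.

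Markers of cell type moved with the same contrast. In SW1990 5 of the 6 ductal epithelial markers were called higher in positive cells and none lower, while all 5 tested of the 6 mesenchymal markers were called lower. The 4 endothelial markers summed to 14.9 to 18.9 RPKM in SW1990 negative and 1.52 to 2.27 RPKM in SW1990 positive samples. Of these only *CDH5* was called. *CLDN5* went the other way, on 8 reads in negative and 26 in positive cells, 20 of the latter in replicate 2 (log2 fold change 0.75, adjusted p = 0.322, limma). The 4 leukocyte markers summed to 34.6 to 48.5 and 15.4 to 33.0 RPKM, with both that were tested called lower and *CD3E* at 0. The part of any of these markers in the claudin differences was not tested.

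In CFPAC-1, *CLDN1* alone was called. It rose 4.81-fold, whereas the claudins that rose in SW1990 were level or lower in positive cells. The count was 1 of 9 higher and 0 lower, against 5.65% and 4.13% of all genes tested, so that 1 of 9 does not stand out as a count. Over all genes called in CFPAC-1, 57.7% were higher, and 45.8% with each sample centred on its median. All positive samples were above all negative ones in 2 genes and below them in 5, as in 28.1% and 20.4% of all genes. The median log2 fold change of the 9 was -0.40, beside 0.05 over all genes.

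*CLDN1* was at 4.03, 1.58 and 1.70 RPKM in negative and 11.4, 7.90 and 14.9 RPKM in positive CFPAC-1 cells. All positive samples were above all negative ones, and even the highest was far under any SW1990 sample. Its rise was 2.27 on the log2 scale (SE 0.32, adjusted p = 0.000318, limma), and 2.05 (adjusted p = 0.00135) without the shallow positive replicate 3. *CLDN1* lies on the minus strand of chromosome 3 (190023496 to 190040235). In the GENCODE annotation 94 bases separate it from the span of *CLDN16* on the plus strand (190040330 to 190129927), and the spans point away from each other. The RefSeq starts are not adjacent. On GRCh38.p14 the *CLDN16* windows begin at 190290111 and 190387913 and the *CLDN1* window at 190322397. *CLDN16* in CFPAC-1 had 4, 2 and 0 reads in negative and 6, 8 and 0 reads in positive samples. Its ratio per library total was 2.60 with an exact 95% interval from 0.94 to 8.27, so no difference was detectable at this depth.

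*CLDN4* was at 1322.1, 1528.8 and 1356.5 RPKM in negative and 685, 936 and 909 RPKM in positive CFPAC-1 cells. The groups did not overlap, with the positive samples lower. The log2 fold change of -0.74 (SE 0.21, adjusted p = 0.0176, limma) had an unadjusted p of 0.00458 and was under 2-fold.

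*CLDN3* was at 158, 156 and 137 RPKM in negative and 73.4, 99.8 and 111 RPKM in positive CFPAC-1 cells, again without overlap. Its log2 fold change was -0.69 (SE 0.24, adjusted p = 0.0418, limma). *CLDN7* was at 103, 113 and 105 RPKM in negative and 106, 126 and 116 RPKM in positive cells. The groups of *CLDN7* overlapped, and its log2 fold change of 0.11 had a 95% interval from -0.36 to 0.58 (adjusted p = 0.727, limma).

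*CLDN12* and *CLDN23* were slightly lower in all positive than in all negative CFPAC-1 samples. *CLDN12* was at 67.9, 62.9 and 60.6 RPKM in negative and 50.1, 56.2 and 37 RPKM in positive cells (log2 fold change -0.44, SE 0.14, adjusted p = 0.0334, limma). *CLDN23* was at 18.4, 17.7 and 15.6 RPKM in negative and 12.7, 12.9 and 13.5 RPKM in positive cells (log2 fold change -0.40, SE 0.15, adjusted p = 0.0497, limma). Neither reached 2-fold.

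*CLDN2* was at 28.6, 17.1 and 16.3 RPKM in negative and 36.3, 29.5 and 31.7 RPKM in positive CFPAC-1 cells. Negative replicate 1 stood apart from its group and came close to the positive samples without reaching them. The fitted log2 value of 0.69 (SE 0.36, adjusted p = 0.148, limma) was not past either threshold. That SE comes from a spread shared with the SW1990 samples, among them positive ones at 0 to 11 reads. It moved with the pseudocount. With 1 added the value was 0.67 (SE 0.18, adjusted p = 0.0122, limma), still under 2-fold. With 0.01 added it was 0.7 (SE 0.88, adjusted p = 0.57, limma), so a lack of difference is not shown. *CLDN2* lies on the X chromosome (106143394 to 106174091, plus strand) inside the span of *MORC4*, which is on the other strand, and whether strand was used in counting is not stated.

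*CLDN10* was at 13.9, 12.3 and 11.8 RPKM in negative and 4.75, 9.12 and 4.85 RPKM in positive CFPAC-1 cells. All positive samples were lower, with replicate 2 nearest to the negative group. Its log2 fold change of -1.07 (SE 0.36, adjusted p = 0.0371, limma) was past 2-fold with an unadjusted p of 0.0123, just over the threshold. Without positive replicate 2 it was -1.38 and called (adjusted p = 0.0159), and it was also called without SW1990 negative replicate 1 or 3, which enter through the shared estimate of spread (adjusted p = 0.0179 and 0.0208). *CLDN10* is on chromosome 13 (96085858 to 96232013, plus strand) and overlaps *CLDN10-AS1* and *DZIP1* on the other strand.

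By an adjusted p under 0.05 with no fold threshold, a rule added after the data were seen, 1 of the 9 was higher (22.3% of all genes) and 5 were lower (14.2% of all genes) in positive CFPAC-1 cells. That count of 5 rests on single libraries. It was 1, 0 and 1 without negative CFPAC-1 replicates 1, 2 and 3, and 0, 3 and 2 without positive CFPAC-1 replicates 1, 2 and 3, and it was 3 without replicate 3 of either SW1990 group. By the same rule 3 of the 6 epithelial markers were higher and 4 of the 5 mesenchymal markers tested were lower in positive CFPAC-1 cells, and past 2-fold with p under 0.01 these counts were 0 and 2. The part of these markers was not tested. For any single gene an exact permutation test of 3 samples against 3 cannot give a p below 0.1.

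**Figure D3:**
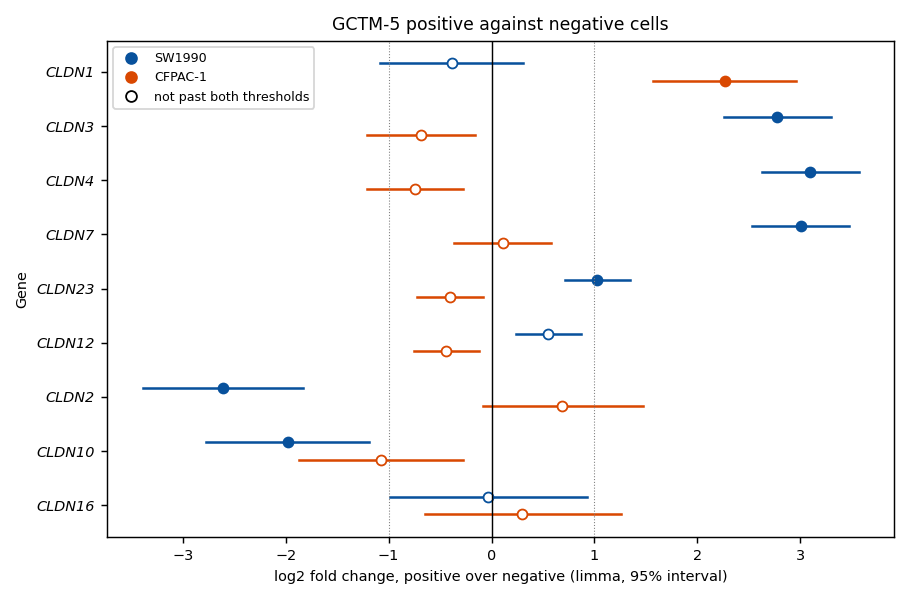
Log2 fold change of GCTM-5 positive over negative cells (limma, with 95% intervals) for each claudin in SW1990 and CFPAC-1, with filled points for changes past both thresholds, open points for the others, and dotted lines at 2-fold. Filled points lie right of 0 for *CLDN3*, *CLDN4*, *CLDN7* and *CLDN23* and left of 0 for *CLDN2* and *CLDN10* in SW1990, and for *CLDN1* alone in CFPAC-1.

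The changes with the antigen were then compared between the lines as 1 contrast, the SW1990 change minus the CFPAC-1 change, called at an adjusted p under 0.05. Of the 9 claudins, 5 had a higher and 2 a lower change in SW1990, against 9.16% and 17.8% of all genes, or 26.9% in either direction. Of all genes called, 34.0% had a higher change in SW1990, and 50.0% with each sample centred on its median. The difference on the log2 scale was 3.84 for *CLDN4* (SE 0.30, adjusted p = 8.09e-06, limma), 3.47 for *CLDN3*, 2.89 for *CLDN7*, 1.43 for *CLDN23* and 0.99 for *CLDN12*. For *CLDN1* and *CLDN2* it had the other sign, at -2.65 (SE 0.45, adjusted p = 0.00123, limma) and -3.30 (SE 0.50, adjusted p = 0.000591, limma), and the latter was -1.41 with a pseudocount of 1. *CLDN10* gave -0.91 (95% interval -2.03 to 0.21, adjusted p = 0.216, limma) and became 0.25 with a pseudocount of 1, and *CLDN16* gave -0.33 (95% interval -1.69 to 1.02, adjusted p = 0.732, limma). The median of this contrast over all genes was -0.15, and 0.00 with each sample centred on its median, which moved no claudin across the threshold.

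The same 12 samples also allow the lines to be compared within each sort, using the values given above. Among GCTM-5 negative cells 2 of the 9 were higher and 6 lower in SW1990 than in CFPAC-1, against 21.9% and 15% of all genes tested. Of those lower in SW1990, *CLDN3* differed most, at a mean of 1.3 RPKM in SW1990 and 150 RPKM in CFPAC-1, a log2 difference of -6.78 (SE 0.24, adjusted p = 4.45e-10, limma). *CLDN4* followed at -4.87 (SE 0.21, adjusted p = 2.52e-09), and then *CLDN2* at -4.53, *CLDN10* at -3.78 and *CLDN7* at -3.32. *CLDN12* was on the threshold at -1.0 (adjusted p = 5.58e-05), and at -0.93 without SW1990 negative replicate 2 and -0.96 without CFPAC-1 negative replicate 1, either of which ends the call.

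In the other direction, *CLDN1* was 46.0-fold higher in negative SW1990 than in negative CFPAC-1 cells (log2 fold change 5.52, SE 0.32, adjusted p = 2.34e-08, limma). *CLDN16*, on 142 reads in SW1990 and 6 in CFPAC-1, had a ratio per library total of 23.6 (exact 95% interval 10.6 to 65.3). The fitted *CLDN16* value was 2.64 (adjusted p = 0.000181, limma), and 0.73 with a pseudocount of 1, which ends the call. *CLDN23* was not called (-0.51, adjusted p = 0.00814). Over all genes the median of this contrast was 0.19, or 0.01 with each sample centred on its median, and 59.4% of calls were higher in SW1990, or 49.5% with centring.

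Among GCTM-5 positive cells the lines were closer for *CLDN3*, *CLDN4*, *CLDN7*, *CLDN12* and *CLDN1* and further apart for *CLDN2*, by the test of the difference between changes given above. Here 2 of the 9 were higher and 4 lower in SW1990, against 14.8% and 13.7% of all genes tested. *CLDN7* and *CLDN12*, 3.32 and 1.0 lower on the log2 scale in negative cells, differed by -0.42 (95% interval -0.89 to 0.05, adjusted p = 0.107, limma) and -0.01 (95% interval -0.33 to 0.30, adjusted p = 0.943). *CLDN4* still differed at -1.02 (SE 0.21, adjusted p = 0.00125), just past 2-fold, and was under it at -0.85, -0.94 and -0.96 without SW1990 positive replicate 1, CFPAC-1 positive replicate 2 and CFPAC-1 positive replicate 3. *CLDN3* was at -3.31 (SE 0.24, adjusted p = 2.45e-07).

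*CLDN1* remained higher in positive SW1990 than in positive CFPAC-1 cells, at 2.87 (SE 0.32, adjusted p = 8.88e-06, limma). *CLDN16*, on 130 and 14 reads, had a ratio of 9.43 (exact 95% interval 5.42 to 17.7) and a fitted value of 2.30, or 0.69 with a pseudocount of 1, which ends the call. *CLDN10* was at -4.69 and *CLDN2* at -7.83, the latter on 11 reads against 6259, a ratio of 0.00178 (exact 95% interval 0.00089 to 0.00319). Both fitted sizes depend on the pseudocount, at -2.61 and -4.98 with 1 added and -5.41 and -10.23 with 0.01 added. *CLDN23* was 0.92 higher in SW1990 (adjusted p = 0.000154), and 1.08 and called without SW1990 positive replicate 1 (adjusted p = 3.66e-05).

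**Figure D4:**
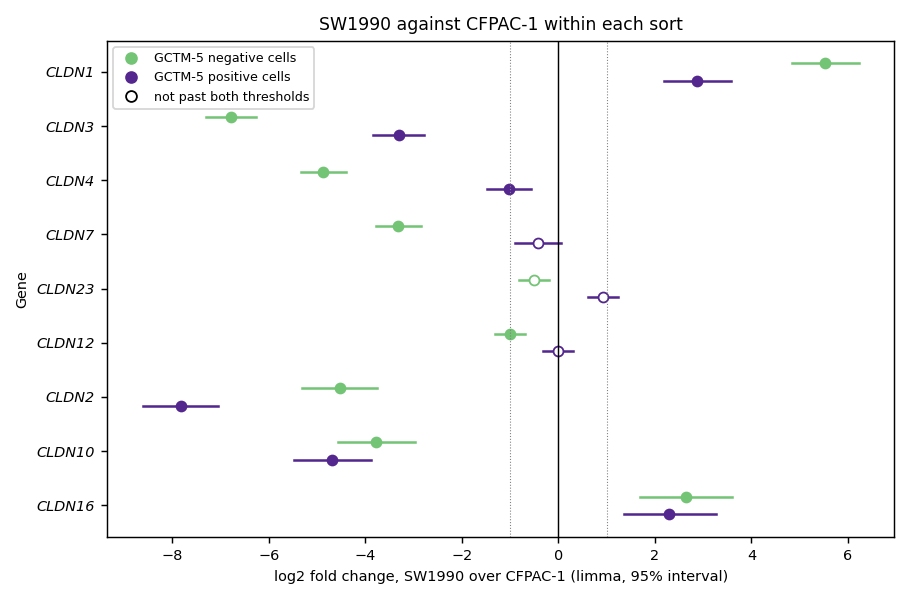
Log2 fold change of SW1990 over CFPAC-1 (limma, with 95% intervals) for each claudin in GCTM-5 negative and in GCTM-5 positive cells, with filled points for differences past both thresholds and dotted lines at 2-fold. For *CLDN3*, *CLDN4*, *CLDN7* and *CLDN12* the points of positive cells lie nearer to 0 than those of negative cells, and for *CLDN2* they lie further from it. The points of *CLDN10* do so too, but with a pseudocount of 1 they are at -2.87 in negative and -2.61 in positive cells.

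The levels of the claudins were also compared with each other over the 12 samples, as a description, since samples of a group share their line and sort and the 4 groups set most of the order. On the log2 scale *CLDN4* went with *CLDN7* (Pearson r = 0.962) and *CLDN3* (0.959), and *CLDN2* with *CLDN10* (0.953). *CLDN1* ran against *CLDN3* (-0.894) and *CLDN10* (-0.882), and *CLDN23* was within 0.482 of 0 with every other claudin of the 8 whose mean was at least 1 RPKM.

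Among 13267 genes with a mean of at least 1 RPKM, the 3 most like each of these 8 claudins over the 12 samples were then listed. For *CLDN4* they were *PRSS8* (r = 0.996), a membrane-anchored protease, the junction gene *ILDR1* (0.996) and *TSPAN1* (0.995). For *CLDN7* they were *DAPP1* (0.997), *TMEM30B* (0.996) and *JUP* (0.995), which encodes plakoglobin, and for *CLDN3* the trefoil factor gene *TFF2* (0.996), *TMEM51* (0.994) and *TMX2-CTNND1* (0.993). *CLDN1* was closest to *SLC2A6* (0.994), *C1orf233* (0.991) and *C16orf57* (0.991), and *CLDN2* to *BICC1* (0.996), *CCDC152* (0.993) and *RGNEF* (0.991). *CLDN10* was closest to *SLC2A13* (0.993), *CALCOCO2* (0.991) and *AHR* (0.990). The nearest genes to *CLDN12* and *CLDN23* were less close, *ZNF204P* at 0.973, *MIR614* at 0.968 and *KLF5* at 0.957 for the former and *PTTG1IP* at 0.935, *SLC37A1* at 0.919 and *THRB* at 0.919 for the latter.

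Of the 14 other claudins in the table, 9 passed the filter and 6 had a group mean of at least 1 RPKM. In each line 1 of the 9 was called higher and 1 lower, which as a count does not stand out from the shares of all genes (4.59% and 7.48% in SW1990, 5.65% and 4.13% in CFPAC-1). *CLDN9*, a sealing claudin known from the inner ear, rose in SW1990 from 1.41 ± 0.369 to 16.7 ± 2.87 RPKM, a log2 fold change of 3.49 (adjusted p = 1.58e-07, limma). CFPAC-1 cells had 56.7 ± 2.55 RPKM of it when negative and 42.7 ± 2.54 RPKM when positive (log2 fold change -0.41). *CLDN11*, best known from myelin, fell in both lines. In SW1990 it was at 48.0 ± 4.49 in negative and 8.63 ± 1.79 RPKM in positive cells, and in CFPAC-1 at 42.4 ± 9.63 and 11.8 ± 1.77 RPKM (log2 fold changes -2.48 and -1.82). *CLDN18*, the claudin of stomach and lung, rose in CFPAC-1 from 0.119 ± 0.0687 to 1.14 ± 0.666 RPKM (log2 fold change 2.35, adjusted p = 0.00153, limma). These values rest on 14, 6 and 6 reads in negative and 133, 112 and 14 reads in positive samples. Positive replicate 3, at 0.387 RPKM, was nearest to the negative group. In SW1990 *CLDN18* stayed at or under 0.140 RPKM. *CLDN14*, *CLDN15* and *CLDN22* were not called in either line.

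Genes whose proteins work with claudins were taken from a list of 32 symbols of tight junction partners, 30 of them in the table and 29 tested. The symbols absent from the table, *PATJ* and *PALS1*, are newer names of *INADL* and *MPP5*, which were listed and tested. In SW1990 12 were called higher and 1 lower in positive cells, and in CFPAC-1 1 was called higher and 1 lower, against 4.59% and 7.48% of all genes in SW1990 and 5.65% and 4.13% in CFPAC-1. Their median log2 fold changes were 0.44 and -0.19, beside -0.04 and 0.05 over all genes. *MARVELD3*, for a protein of the strands, *ILDR1*, for one of the corners where 3 cells meet, and *CGN*, for the plaque protein cingulin, rose most in SW1990, with log2 fold changes of 4.24, 3.38 and 3.08, and occludin (*OCLN*) rose from 0.579 ± 0.119 to 4.01 ± 0.552 RPKM (log2 fold change 2.60). In CFPAC-1 the calls were *AMOT* at 1.00 and *IGSF5* at -1.58, and *OCLN* was at 7.21 ± 0.197 in negative and 5.95 ± 1.00 RPKM in positive cells. *TJP1*, which encodes the scaffold ZO-1 that claudins bind, was not called in either line (log2 fold changes 0.20 and 0.26).

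A list of 24 regulators and binding partners of claudins, 23 of them tested, had 11 called higher and 3 lower in SW1990 and 3 higher and 1 lower in CFPAC-1, with medians of 0.68 and -0.23. Over all genes the shares called were 4.59% and 7.48% in SW1990 and 5.65% and 4.13% in CFPAC-1, with medians of -0.04 and 0.05. *OVOL1*, a transcription factor of epithelia, and *ST14*, the protease matriptase, rose in SW1990 by 4.04 and 3.28 on the log2 scale, and *ZEB1* fell there by 3.56. *EPCAM*, whose protein is known to bind claudin-7, rose by 3.04 on the log2 scale in SW1990 and was not called in CFPAC-1, at -0.08. *ZEB1*, *GRHL2* and *GRHL1* were called in both lines, *ZEB1* falling by 1.39 and *GRHL2* rising by 1.04 in CFPAC-1. *GRHL2* rose by 2.81 in SW1990, and *GRHL1* rose by 2.17 in SW1990 and 1.18 in CFPAC-1. The part of these genes in the claudin differences was not tested.

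**Figure D5:**
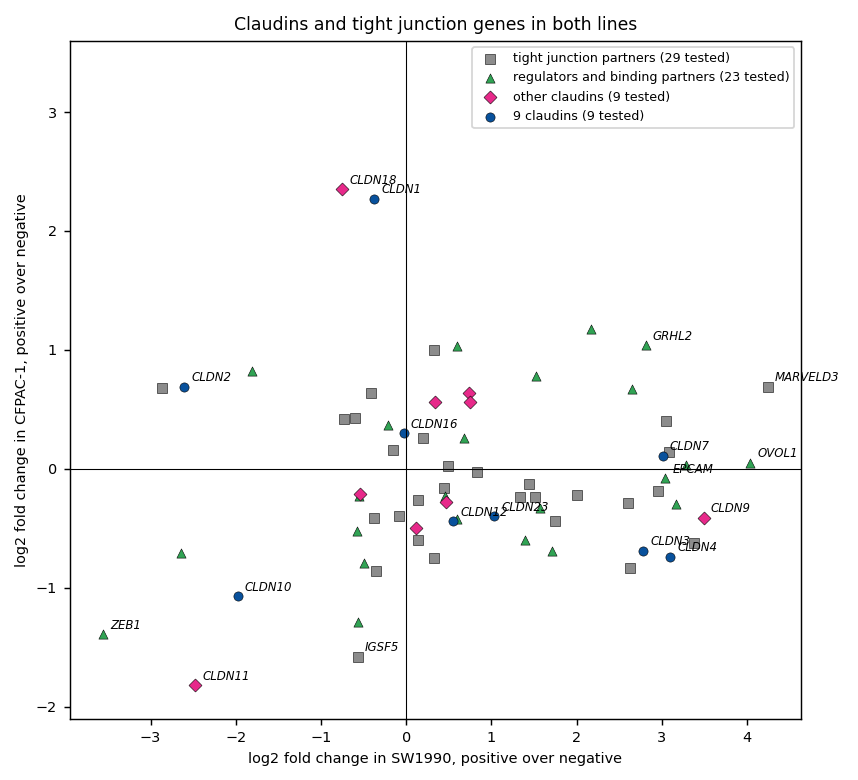
Log2 fold change of GCTM-5 positive over negative cells in SW1990 (horizontal) and CFPAC-1 (vertical) for the 9 claudins, 9 other claudins, 29 tight junction partners and 23 regulators and binding partners that passed the filter, with 1 point per gene and selected genes named. *CLDN3*, *CLDN4*, *CLDN7* and *CLDN9* lie at 2.78 to 3.49 in SW1990 and between -0.74 and 0.11 in CFPAC-1, and *CLDN1* and *CLDN18* lie above 2 in CFPAC-1 and below 0 in SW1990.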

How the data were processed

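RNA-seq of 12 samples was used, 3 in each of 4 groups set by cell line and GCTM-5 sort as labelled. Per the paper's methods, QuasR was used by the authors, after alignment to hg19 (GRCh37), to compute the deposited RPKM values from library size and gene length. The annotation, whether strand was used, how reads with several matches were treated and tool versions are not given in the sources used here, and the labels name a strand-specific kit where the paper names another. The claudins and gene lists were chosen with earlier results of these data known.

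Whole reads and library totals (9969697 to 26159330) were recovered from the RPKM values and the lengths of single-exon genes in GENCODE 44 on GRCh37. All 19654 genes above 0 gave whole reads to within 0.01 of a read. Intervals on reads are exact and cover counting error only, since PCR copies are not independent molecules. The study names TCC. Since RPKM values are not counts, log2 of RPKM plus 0.1 was fitted for the 16236 genes with a mean of at least 0.1 RPKM, as 4 group means, with limma 3.58.1 (eBayes with a trend) in R 4.3.3. Scripts were tested on simulated data. Calls needed over 2-fold and an unadjusted p under 0.01, which the study states without saying whether p was adjusted. The difference between lines needed an adjusted p under 0.05. Named genes are the 9 claudins, other claudins with a group mean of at least 1 RPKM, the 3 largest called changes per list and line, and *EPCAM*, *OCLN*, *TJP1*, *GRHL2* and *ZEB1*, and 1 further gene of that rule is not reported here. Gene positions are on GRCh37, and promoter windows come from RefSeq on GRCh38.p14 with that build's coordinates. Python 3.11.15, pandas 2.3.3, scipy 1.17.1 and matplotlib 3.10.9 were used.

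Alternatives were pseudocounts of 1 and 0.01, no filter or a mean of at least 1 RPKM, centring on the median, quantile normalization, no trend, each line alone, a replicate block, voom on the recovered reads, other thresholds and each sample left out in turn.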

Additional observations from a re-analysis of the deposited data

Results flagged for a closer look

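The change with GCTM-5 differed between SW1990 and CFPAC-1 for 7 of the 9 claudins by limma's test of the difference itself, at an adjusted p under 0.05, a share to be read beside the 26.9% of all genes that passed the same test. The difference, SW1990 minus CFPAC-1 on the log2 scale, was 3.84 for *CLDN4*, 3.47 for *CLDN3* and 2.89 for *CLDN7*. *CLDN23* and *CLDN12* differed by 1.43 and 0.99. For *CLDN2* and *CLDN1* the difference was -3.30 and -2.65.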

How the results depend on the processing

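Over 1084 values of single claudins under other settings, 1040 kept their direction and their side of the threshold, 13 lost a call, 21 gained one and 10 changed sign. In SW1990 6 claudins were called and 3 with a pseudocount of 1, which lost *CLDN2*, *CLDN10* and *CLDN23*. In CFPAC-1 1 was called, and 2 under median centring, quantile normalization, each line alone, the replicate block or voom, each of which gained *CLDN10*, and 2 with no fold threshold, which gained *CLDN4*. With an adjusted p under 0.05 and no fold threshold, chosen after seeing the data, 6 were called there. Without single samples the counts ran from 5 to 6 in SW1990, 1 to 2 in CFPAC-1, 7 to 7 for the difference between lines, 7 to 8 between lines in negative cells and 5 to 6 in positive cells.

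The values that changed sign were all uncalled. *CLDN16* in SW1990 became 0.01 with a pseudocount of 1, 0.02 with median centring, 0.22 with quantile normalization, 0.21 without SW1990 negative replicate 3 and 0.42 without SW1990 positive replicate 1. The difference between lines became 0.25 for *CLDN10* with a pseudocount of 1 and 0.12 for *CLDN16* without SW1990 positive replicate 1. *CLDN12* between lines in positive cells became 0.07, 0.03 and 0.11 without SW1990 positive replicate 1, CFPAC-1 positive replicate 1 and CFPAC-1 positive replicate 2. Over all samples left out in turn, *CLDN16* ranged from -0.34 to 0.42 in SW1990 and from -0.66 to 0.12 for the difference, and *CLDN12* from -0.19 to 0.11 between lines in positive cells. The cause was not tested.

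Median centring moved the share of higher calls over all genes from 57.7% to 45.8% in CFPAC-1, from 34.0% to 50.0% for the difference between lines and from 59.4% to 49.5% between lines in negative cells. Samples with the same replicate number deviated together weakly at most (r of 0.185, 0.016 and 0.116 in SW1990 and -0.020, 0.001 and -0.059 in CFPAC-1). Different numbers gave r from -0.254 to 0.162 in SW1990 and from -0.033 to 0.042 in CFPAC-1. These values do not settle whether samples were paired, and numbers were not taken as pairs. The replicate block changed only the call of *CLDN10* in CFPAC-1 (adjusted p = 0.0191, limma). Depth limits *CLDN16* in CFPAC-1 and *CLDN2* and *CLDN10* in positive SW1990 cells, where samples held at most 11 reads.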
